A study of Mus musculus with 4 samples.

Results

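Of 36576 YAP peaks called in wild-type (WT) mouse epidermis, 424 lay over 2 or more separate peaks called in Bmal1 knockout (KO) epidermis, and these split sites are described here. They were selected on the overlap of the deposited WT and KO peak intervals, with at least 1 bp shared between the WT peak and each KO peak. Split sites made up 1.16% of all WT peaks (exact 95% interval 1.05 to 1.27%) and 2.96% of the 14315 WT peaks that lay over any KO peak (2.69 to 3.25%). The other 13891 of these kept peaks lay over a single KO peak and are called single sites below. Because the overlap of both lists chose the members, their widths, their KO peaks and their KO to WT ratios are given as descriptions with no test.

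The study measured YAP binding by ChIP-seq, in which chromatin is precipitated with an antibody and the recovered DNA sequenced, in epidermal cell suspensions from the skin of adult mice aged 18 to 25 weeks, killed at Zeitgeber time 4, which is 4 hours after lights on. Of its 4 samples, a YAP ChIP and an input came from Bmal1 WT mice, and a YAP ChIP and an input from Bmal1 KO mice. The genotype label reads Bmal1 KO while the treatment protocol reads Bmal1cKO, and the sources used here do not state in which cells the gene was deleted, how many animals were used or any further allele. Each genotype had 1 pooled peak list, with 36576 peaks in WT and 14879 in KO, and the values below therefore carry no error between replicates. A peak list holds neither transcripts nor reads over deleted exons, so it checks neither the labelled tissue nor the genotype. In bulk chromatin, YAP bound in fewer cells and less YAP bound per cell cannot be told apart.

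YAP is a transcriptional co-activator of the Hippo pathway that does not bind DNA itself. It reaches enhancers and promoters mainly through TEAD proteins, often beside AP-1 factors, and in epidermis it is known for supporting proliferation of basal keratinocytes. BMAL1, the transcription factor that drives the positive arm of the circadian clock, binds E-box sequences. In ChIP-seq, a wide peak can be a single broad domain or several binding positions whose read pile-ups run together, and the caller separates them where the signal between them drops below its limit.

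Split sites that contain a promoter show how the letters of a site can be shared out between what was called in KO and what was not. Such promoter windows, RefSeq sequence of GRCm38 (the build mm10), are printed as the 250 bases before a listed transcription start, 5′ to 3′ on the strand of the gene. They were chosen after their values were seen, as windows that overlap no gene span and hold a searched motif. Capitals mark GGAATG (the TEAD motif) or CACGTG (the E-box), on either strand. In the windows of Vgll3 (chr16:65814939-65815188, plus strand), a TEAD cofactor gene, and Epha2 (chr4:141300971-141301220, plus strand), an ephrin receptor gene, the start and the capitals lay in the strongest KO peak. At Foxo3 (chr10:42276696-42276945, minus strand), which encodes a forkhead transcription factor, they lay in the weaker KO peak.
Vgll3: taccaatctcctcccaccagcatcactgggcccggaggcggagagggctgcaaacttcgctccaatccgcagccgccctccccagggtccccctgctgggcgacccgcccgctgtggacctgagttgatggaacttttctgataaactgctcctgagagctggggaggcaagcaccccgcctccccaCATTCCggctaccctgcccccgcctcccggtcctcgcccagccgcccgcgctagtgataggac
Epha2: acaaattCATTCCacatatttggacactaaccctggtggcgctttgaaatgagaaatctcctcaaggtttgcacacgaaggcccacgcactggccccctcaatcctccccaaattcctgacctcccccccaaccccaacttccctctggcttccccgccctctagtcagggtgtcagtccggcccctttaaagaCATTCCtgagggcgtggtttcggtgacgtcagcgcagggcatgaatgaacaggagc
Foxo3: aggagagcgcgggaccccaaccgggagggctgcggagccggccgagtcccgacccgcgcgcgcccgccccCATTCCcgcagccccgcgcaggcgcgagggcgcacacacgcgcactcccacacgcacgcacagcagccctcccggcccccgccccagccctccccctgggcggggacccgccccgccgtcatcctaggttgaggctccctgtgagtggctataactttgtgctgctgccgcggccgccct

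The next pair has its transcription start in the gap between KO peaks. At Coq10b (chr1:55052520-55052769, plus strand), a coenzyme Q gene, 121 of the 250 bases and the E-box letters lay in the gap of 146 bp, which joining of KO peaks closer than 150 bp would close. At Tenm4 (chr7:96170994-96171243, plus strand), which encodes a teneurin, 87 bases lay in the gap, while the TEAD letters lay in the weaker KO peak.
Coq10b: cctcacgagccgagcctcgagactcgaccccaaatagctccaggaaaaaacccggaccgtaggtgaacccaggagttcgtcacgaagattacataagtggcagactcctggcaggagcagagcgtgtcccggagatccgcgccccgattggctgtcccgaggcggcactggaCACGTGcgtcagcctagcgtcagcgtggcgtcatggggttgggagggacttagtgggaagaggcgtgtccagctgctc
Tenm4: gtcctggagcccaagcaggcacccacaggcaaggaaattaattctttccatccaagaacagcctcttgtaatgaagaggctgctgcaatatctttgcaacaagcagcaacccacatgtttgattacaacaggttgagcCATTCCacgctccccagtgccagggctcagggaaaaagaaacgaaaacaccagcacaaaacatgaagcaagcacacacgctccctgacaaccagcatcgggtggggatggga

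Promoters in split sites most often lay in the weaker KO peak. Throughout, the KO peaks of a site were ranked by reads at the summit, and the order by the caller's score differed at some sites. Of 411 split sites on chromosomes with listed starts, 117 (28.5%) held 150 starts, beside 424 of 1251 single sites of 1200 bp or wider (33.9%). The start lay in the strongest KO peak in 38 of the 150 cases (25.3%, 18.6 to 33.1%), in a weaker KO peak in 74 (49.3%, 41.1 to 57.6%), in the gap in 15 (10.0%) and in a flank outside the KO peaks in 23 (15.3%). In these 117 sites, the strongest KO peak took 32.9% of the WT length, the weaker ones 28.7%, the gaps 18.6% and the flanks 19.7%. The intervals take each start as separate, although 27 sites held 2 or more. Among the 90 sites with only 1 listed start, 45 had it in a weaker KO peak and 23 in the strongest. The strongest KO summit, the base with the most reads, lay on either side of the start, and downstream of it in 62 of the 150 cases. With upstream taken as negative, its distance from the start had a median of -143.5 bp. At single sites of 1200 bp or wider this median was -131.5 bp, with the summit downstream of 231 of 592 starts.

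The searched letters were present in few of these windows. GGAATG, on either strand, was found in 21 of the 150 windows (14.0%, 8.88 to 20.6%), beside 12.6% of all 32817 listed windows of the same length and 17.4% of 592 windows in single sites of 1200 bp or wider. TGANTCA (AP-1) was found in 13 (8.67%), beside 6.75% of all and 4.39% in wide single sites. CACGTG was found in 16 (10.7%, 6.22 to 16.7%), beside 6.02% and 8.45%. The 150 windows came from 117 sites and some overlap, so the E-box at Eif5a and an AP-1 match at F11r were counted more than once. The intervals take each window as separate and are too narrow to that extent. No motif of these 3 contains another, and a match is a description, not a bound site. Of the TEAD matches, 7 lay in the strongest KO peak, 12 in a weaker one, 2 in a gap and 1 in a flank or across an edge.

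Split sites were wide. Their median width was 1611 bp (95% interval 1565 to 1657, range 616 to 4379), beside 678 bp for single sites. Most, 407, held 2 KO peaks, 15 held 3 and 2 held 4, which gave 865 KO peaks in all. None of 5033 kept WT peaks under 600 bp was split (upper limit 0.0733%), beside 38 of 1225 (3.10%) from 1000 to under 1200 bp, 152 of 551 (27.6%) from 1500 to under 2000 bp and 41 of 54 (75.9%, 62.4 to 86.5%) of 2500 bp or more. KO peaks are at least 300 bp wide and 51 bp apart, which a narrow WT peak cannot hold in full, so the higher share at larger widths follows in part from the rule.

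**Figure D1:**
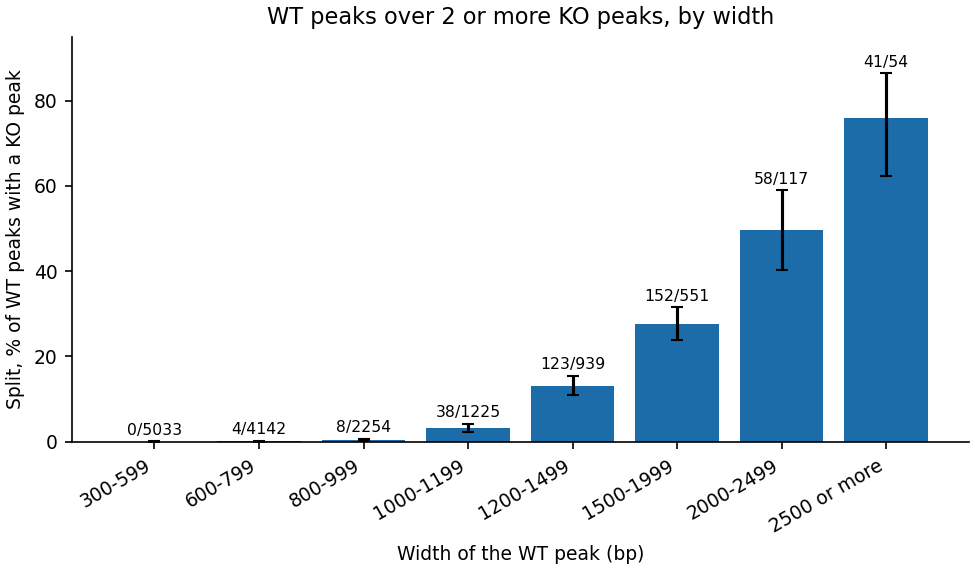
Share of WT peaks with a KO peak that lay over 2 or more KO peaks (vertical axis, percent) by width of the WT peak in bp. Bars are shares, the numbers above them are split over kept peaks, and error bars are exact 95% intervals for counting error; the share was 0 of 5033 in the narrowest class and 41 of 54 in the widest.

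Neighbouring KO summits inside a WT peak were mostly 500 bp to 1 kb apart. Over 443 neighbouring pairs the median spacing was 798 bp (770 to 833, range 251 to 2156), with 22 pairs under 500 bp, 311 from 500 to under 1000 bp, 85 from 1000 to under 1500 bp and 25 of 1500 bp or more. The stretch between the edges of the KO peaks, the gap, had a median of 245 bp (229 to 267, range 51 to 1438). In 126 pairs (28.4%) it was under 150 bp, so those KO peaks nearly touched, and in 58 it was 500 bp or more. No peak of either list was narrower than 300 bp, which limits how close separate summits can come. Across the 407 sites with 2 KO peaks, the spacing had a Spearman correlation of 0.74 with the width of the WT peak that must contain both.

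**Figure D2:**
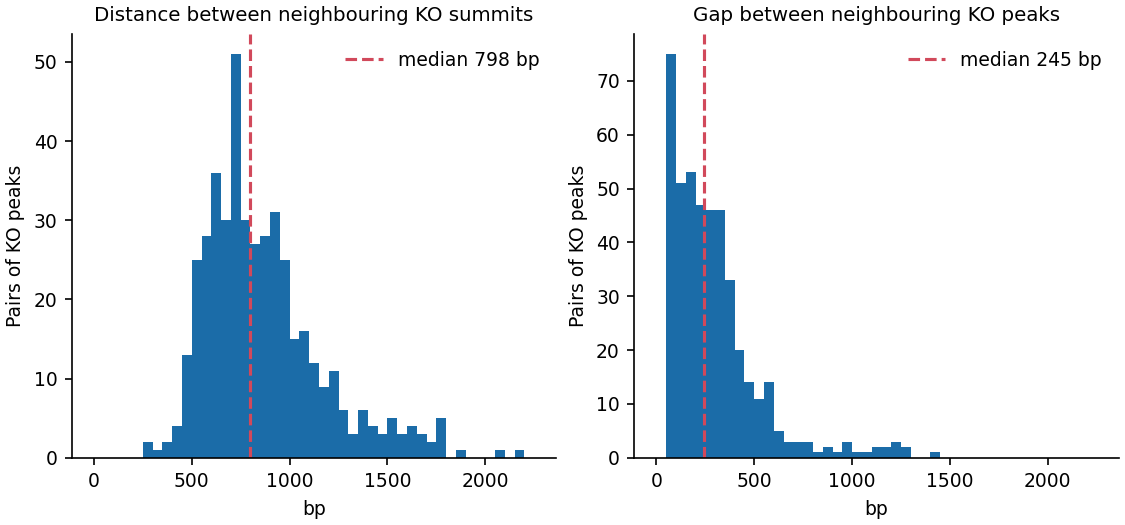
Histograms of the distance between neighbouring KO summits (left) and of the gap between neighbouring KO peaks (right), both in bp, over 443 pairs in 424 split sites. Dashed lines are the medians, 798 and 245 bp; the gaps pile up just above the smallest distance of 51 bp, while the summits have few pairs under 500 bp.

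The part of the WT peak with no KO call was shared about equally between the middle and the edges. Of 729528 bp in split WT peaks, KO peaks covered 64.0%, the gaps took 17.9% and the outer flanks 18.1%. The covered share was 64.4% over single sites of all widths. At widths of 1200 bp or more the median covered share was 64.3% for split and 51.8% for single sites, which by the rule hold fewer KO peaks. In a typical split site 529.5 bp were without a KO call, with a median of 246 bp in the gaps, 107.5 bp at the left edge and 121 bp at the right. The gap was longer than both flanks together in 203 of 424 sites (47.9%). A KO peak reached past an edge of the WT peak in 85 of 424 split sites, beside 17.7% of single sites.

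The interior dip is fixed by the rule. Its place is limited by the rule too, since a KO peak of at least 300 bp must lie on each side of a gap. With each site turned so that the strongest KO summit lay on the left, KO coverage over the 407 sites with 2 KO peaks was 91.6% at 20 to 25% of the width, 45.7% at 50 to 55% and 82.9% at 75 to 80%. Single sites, which by the rule hold no second KO peak, cannot show such a return. At those of 1200 bp or wider, coverage reached 93.1% at 30 to 35% of the width and was 32.1% at 75 to 80%.

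**Figure D3:**
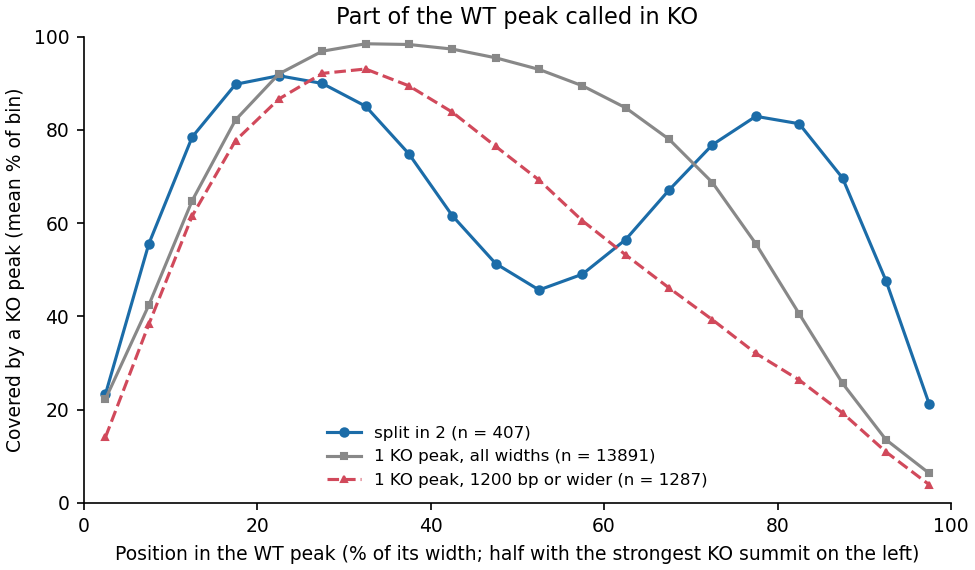
Mean share of each of 20 bins of the WT peak that a KO peak covered (vertical axis, percent), against position in the WT peak in percent of its width, for 407 sites split in 2, 13891 single sites and 1287 single sites of 1200 bp or wider. Sites are turned so that the strongest KO summit is on the left; the split sites have a low of 45.7% just past the centre and a return to 82.9%.

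The WT summit nearly always lay in a KO peak, at split as at single sites. It lay in the strongest KO peak at 358 of 424 split sites (84.4%, 80.6 to 87.8%), in a weaker KO peak at 59 (13.9%), in the gap at 7 (1.65%, 0.666 to 3.37%) and in a flank at none, for which the exact upper limit is 0.866%. At single sites it lay in the KO peak in 98.3%. Both groups have a KO peak by the rule, and the 22261 WT peaks over no KO peak are not counted in these shares. The WT summit of a split site sat off centre, at a median of 24.8% of the width from the middle, beside 6.78% at single sites and 18.1% at single sites of 1200 bp or wider. A summit in 1 of 2 KO peaks set side by side tends to lie off the middle, so this contrast follows in part from the rule. The strongest KO summit was within 100 bp of the WT summit at 330 split sites (77.8%), beside 88.5% of single sites. It lay to the left of the other KO summits at 199 sites (46.9%).

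Read numbers at the summits, solved from the deposited fold and p and comparable between the lists in these units, were lower in KO than in WT at all 424 split sites. Most single sites were lower in KO too, since the upper quartile of their log2 KO to WT ratio above background was -0.69. Median reads at split sites were 117.5 at the WT summit (range 55 to 257), 63.5 at the strongest KO summit (34 to 180) and 45 at the second KO summit (31 to 141). Single sites had medians of 92 in WT and 52 in KO. At widths of 1200 bp or more the medians were 123.5 and 67 for split sites and 121 and 67 for single ones. After subtraction of an even background of 9.63 reads in each list, the log2 ratio of the strongest KO summit to the WT summit had a median of -0.93 (-0.95 to -0.90, range -1.67 to -0.12), beside -0.88 at single sites and -0.90 at single sites of 1200 bp or wider. The ratio was 0.5 or less at 171 split sites (40.3%), beside 32.9% of all kept peaks, a contrast that the rule used. At widths of 1200 bp or more the shares were 38.8% of split (33.8 to 43.9%) and 34.7% of single sites (32.1 to 37.3%). These wide groups were not matched in width, with medians of 1678 bp for split and 1401 bp for single sites. The lowest called summits had 28 reads in WT and 29 in KO, and the middle 50% of second KO summits had 39 to 51 reads, beside a median of 52 over the whole KO list.

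The second KO summit, always in a separately called peak, ranged from far below the first to its equal. Above background it had a median of 0.708 of the strongest (0.661 to 0.738, range 0.193 to 1), with 157 sites at 0.8 or more, 102 under 0.5 and 10 with equal reads. Where the WT summit lay in the weaker KO peak, this ratio had a median of 0.890. Over the 407 sites with 2 KO peaks, more WT reads went with a lower ratio (Spearman correlation -0.60). The strongest KO summit, by which this ratio is divided, itself rose with WT reads (Spearman correlation 0.91). The negative correlation is therefore in part built into the ratio. The points share the lower limit of the KO list, which is set on the caller's q and is not a fixed read number. The stronger KO peak was the wider at 292 of these 407 sites, with median widths of 539 and 427 bp.

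**Figure D4:**
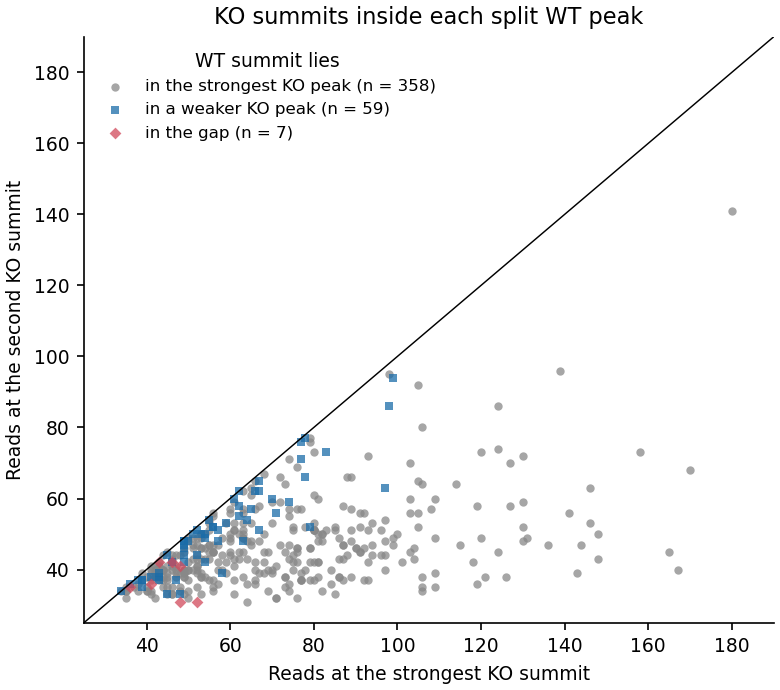
Reads at the second KO summit against reads at the strongest KO summit for each of 424 split sites; the line marks equal reads. Symbols give where the WT summit lay; the 59 sites with it in a weaker KO peak sit close to the line, and the strongest summits span 34 to 180 reads and the second ones 31 to 141.

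Seen from the KO list, the share of neighbours in the same WT peak went down with their distance. A WT peak must span that distance to hold both, and the median WT width was 516 bp, so the fall follows in part from the WT widths. It was 75 of 76 for KO peaks under 100 bp apart, 93 of 124 from 200 to under 300 bp, 36 of 224 (16.1%) from 500 to under 750 bp and 0 of 829 from 1500 to under 3000 bp (upper limit 0.444%). The reverse case was rare. Only 32 KO peaks lay over 2 or more WT peaks, 0.217% of the 14726 KO peaks with a WT peak. The 2 directions are not alike, since the KO list was shorter (14879 against 36576 peaks) and its peaks narrower (median 448 against 516 bp).

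Split sites had a higher share near gene ends than all single sites, and a lower share than wide single sites. Their WT summit lay within 2 kb of an end of a protein-coding gene in 143 of 424 cases (33.7%, 29.2 to 38.4%), beside 22.2% of single sites. Among sites of 1200 bp or wider the shares were 33.7% of 374 split (28.9 to 38.7%) and 39.5% of 1287 single sites (36.9 to 42.3%). By width class, the split share was the lower from 1200 to under 2500 bp. At 2500 bp or more, with 54 kept peaks, it was the higher, at 43.9% beside 30.8%. The summit lay inside a gene span at 49.3% of split and 51.0% of single sites. A second WT peak within 1 kb was present at 29.7% of split sites and 31.6% of wide single ones. The split share of kept peaks ran from 1.91% on chromosome 2 to 4.15% on chromosome 19 among the autosomes, and no split site was found among 139 kept peaks on chromosome X (upper limit 2.62%). Of the 424, 409 were linked to 380 genes within 100 kb, and 27 genes had 2 or more, led by Ablim1 and Plec with 3 each.

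At the 8 split sites of highest WT score the second KO summit had 36 to 141 reads and the strongest 119 to 180. The highest-scoring site, chr19:5844582-5847784, lay 4104 bp from Frmd8 and had 257 WT reads. Its KO peaks had 68 and 170 reads, 98 bp apart, and 728 bp at its left edge had no KO call. The site inside Slit3, which encodes a secreted guidance ligand, at chr11:35414176-35416503, had 234 WT reads and KO summits of 73 and 158 reads. The site 68616 bp from Foxo1, a forkhead factor gene, at chr3:52197871-52200250, had 252 WT reads against 40 and 167. In these 3 sites the log2 ratio of the strongest KO summit lay between -0.63 and -0.60, above the median of the split sites.

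At chr17:31745597-31749701, 66621 bp from Cryaa and inside the span of the lncRNA Gm30316, a WT peak of 249 reads held 3 KO peaks of 47, 141 and 180 reads. It was among the widest, at 4105 bp, and the 180 and 141 reads were the highest strongest and second KO summits of all split sites. At Smim5 (chr11:115904058-115905498), 229 WT reads stood beside 36 and 119 in KO, with only 84 bp between the KO peaks. The lesser KO summit was also below the main one near Usp25, a deubiquitinase gene (chr16:76957149-76959349), with 208 WT reads against 53 and 146, and near Ifitm6 (chr7:141024954-141026687), with 211 against 47 and 136. Near Siah1a, a ubiquitin ligase gene (chr8:86764556-86767531), 224 WT reads stood beside 72 and 130, and 880 bp at the left edge had no KO call.

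Both sites with 4 KO peaks were among the widest, and each had 3 when KO peaks closer than 150 bp were joined. The widest split WT peak, of 4379 bp at chr10:17693977-17698355, lay 28836 bp from Cited2, a transcriptional co-regulator gene. Its 199 WT reads stood beside KO summits of 124, 75, 86 and 51 reads, from left to right, and the WT summit lay near the left end in the KO peak of 124 reads. The other, of 3654 bp at chr11:100395085-100398738, lay over the promoter of Jup, the gene of the desmosomal protein plakoglobin. Its 146 WT reads stood beside 45, 50, 36 and 81 reads, with 1100 bp in its 3 gaps together. A second split site inside Jup (chr11:100386594-100388210) had 134 WT reads and KO summits of 37 and 77.

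**Figure D5:**
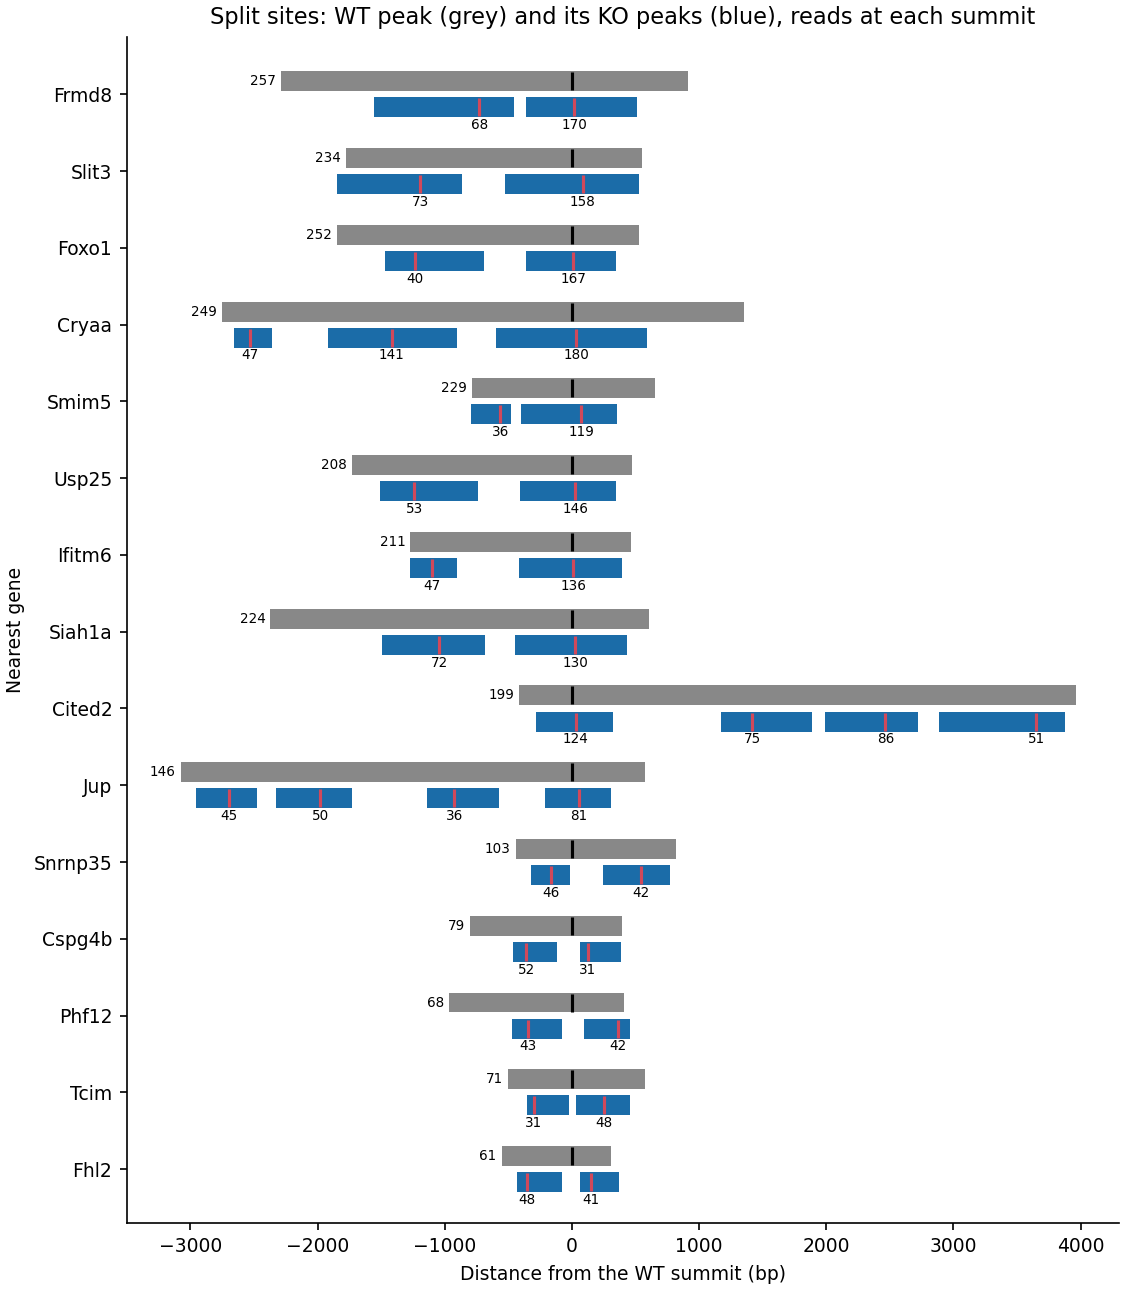
Intervals of 15 split sites with distance from the WT summit in bp on the horizontal axis and the nearest gene on the vertical axis: the 8 of highest WT score, the 2 with 4 KO peaks and 5 with the WT summit between KO peaks. Grey bars are WT peaks, blue bars KO peaks, ticks their summits and numbers the reads; the site near Cited2 has 199 WT reads and 124, 75, 86 and 51 KO reads.

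The widest spacings of neighbouring KO summits occurred at sites of very different gap length. At chr7:73615803-73619066, 74381 bp from the chromatin remodeller gene Chd2, the summits were 2156 bp apart with a gap of 1196 bp, and 158 WT reads stood beside 94 and 99 in KO. The WT summit there lay in the weaker KO peak. At chr6:129235842-129238664, 29103 bp from Cd69, they were 2050 bp apart, with 144 WT reads beside 74 and 59. Cd69 is known as a marker of activated lymphocytes, and the summit lay in the span of the lncRNA 2310001H17Rik.

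The other 3 of the 5 widest spacings were near Epgn, Perp and Ripk4. Near Epgn, the gene of the EGF-receptor ligand epigen (chr5:91036386-91039276), the summits were 1880 bp apart although the gap was only 115 bp, with 191 WT reads beside 105 and 92. Near Perp, a desmosome gene (chr10:18858953-18861881), they were 1796 bp apart with a gap of 143 bp, with 112 WT reads beside 31 and 64. Near Ripk4, a kinase gene of keratinocyte differentiation (chr16:97736378-97738570), they were 1778 bp apart with a gap of 1287 bp, with 139 WT reads beside 71 and 32. Its KO peaks reached the WT edges to within 7 bp, so nearly all that was uncalled there lay in the middle. With both lists limited to a −log10 q of at least 4, the Ripk4 site had 1 KO peak left. The longest single gap, 1438 bp, was at chr9:61370269-61372664 near Tle3, where KO peaks of 44 reads each covered 26.6% of a WT peak of 96 reads.

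At 7 sites the WT summit itself lay between the KO peaks, and all had few reads, 61 to 103 in WT. The site with the most lay over the promoter of Snrnp35, a gene of the minor spliceosome (chr5:124482683-124483938), with 103 WT reads beside 46 and 42. Inside Cspg4b (chr13:113333237-113334436), 79 WT reads stood beside 52 and 31, and near Phf12 (chr11:77981439-77982811), 68 stood beside 43 and 42. Near Tcim (chr8:24441809-24442881), 71 WT reads stood beside 31 and 48 with a gap of 55 bp. In Fhl2, the gene of a LIM-domain cofactor (chr1:43173371-43174230), 61 stood beside 48 and 41. In these 7 the gaps were 55 to 256 bp long.

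The highest-scoring sites whose KO summits had scores in a ratio of at least 0.9 were found at Nab2, Myh9 and Sp6. Near Nab2, a co-repressor gene (chr10:127666460-127669072), 177 WT reads stood beside 95 and 98, and the KO peaks covered only 45.2% of the WT peak. Inside Myh9, the non-muscle myosin heavy chain gene (chr15:77820078-77822713), 155 stood beside 76 and 79. Near Sp6, the gene of an epithelial transcription factor (chr11:97024871-97026204), 152 stood beside 62 and 67, with a log2 ratio of -1.31. The WT summit there lay in the KO peak with fewer reads, which had the higher score (207 against 188).

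YAP and TEAD target genes and Hippo pathway genes, counted as 1 list, had 6 split sites among 110 kept peaks (5.45%, 2.03 to 11.5%), beside 2.96% of all kept peaks. The split sites were linked to Vgll3 and Vgll4, which encode TEAD cofactors, Amotl1 and Amotl2, whose angiomotin-like products bind YAP, Wwc1, which encodes the upstream Hippo component KIBRA, and Crim1. Over the Vgll3 promoter printed above (chr16:65814600-65816342), 195 WT reads stood beside 121 and 38 in KO, with a gap of 74 bp. Near Amotl2 (chr9:102737120-102739006), 205 stood beside 130 and 59, and near Amotl1 (chr9:14662031-14663572), 131 stood beside 61 and 80. At Vgll4 (chr6:114930991-114932568), 93 stood beside 49 and 48, and the WT summit lay in the weaker of them. Of these 4, the Amotl1, Vgll3 and Amotl2 sites had log2 ratios from -0.79 to -0.70, while that of Vgll4 was -1.08.

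Clock genes had 1 split site among 59 kept peaks (1.69%, 0.0429 to 9.09%), and none was linked to Arntl, the gene of BMAL1. It lay in Usp2, a deubiquitinase gene with rhythmic expression, and the lncRNA Gm39325 (chr9:44066522-44068591), with 179 WT reads beside 64 and 106. AP-1 factor genes had 4 among 58 (6.90%, 1.91 to 16.7%), linked to Atf3, Bach2 and Fos, the last from 43779 bp away. Near Atf3, a stress-induced factor gene, 2 adjoining WT peaks were both split. The first (chr1:191182883-191185556) had 198 WT reads beside 99 and 49, and the second (chr1:191185617-191186889) had 99 beside 49 and 51. The KO peak of 49 reads was the same in both, so these members share a KO peak. Inflammation genes had 2 among 82 (2.44%, 0.297 to 8.53%), Irf1 and Nfkbia, the gene of the NF-kB inhibitor IkB-alpha. Near Irf1, an interferon response factor gene (chr11:53762401-53764515), 174 WT reads stood beside 36 and 84.

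Keratinocyte genes held 13 of the split sites. Basal genes had 5 among 98 kept peaks (5.10%, 1.68 to 11.5%), with 3 in Plec, the gene of the cytoskeletal linker plectin, and the others at Sfn and Cdh13. The strongest in Plec (chr15:76194685-76196964) had 204 WT reads beside 45 and 124, a second (chr15:76197899-76199878) 109 beside 55 and 45, and the last (chr15:76206417-76207884) 63 beside 32 and 35. Genes of differentiated keratinocytes had 8 among 125 (6.40%, 2.80 to 12.2%), at Abca12, Dsp, Evpl, Grhl3, Krt10, Tgm1 and, with 2, Hes1. At Krt10, the suprabasal keratin gene (chr11:99390599-99392536), 161 WT reads stood beside 94 and 47. At Evpl, the envoplakin gene (chr11:116236894-116239118), 156 stood beside 98 and 86, with the WT summit in the weaker KO peak. Dsp, the desmoplakin gene, had 3 KO peaks in a site 27314 bp away (chr13:38122298-38124462), with 143 WT reads beside 51, 37 and 80. A site of Hes1 (chr16:30062713-30065664) had the longest uncalled edge of all split sites, 1293 bp on its left.

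Other lists had few split sites. Hair follicle and stem cell genes had 2 among 70 (2.86%, 0.348 to 9.94%). Near Lrig1, a stem cell marker gene (chr6:94717499-94719305), 166 WT reads stood beside 47 and 115. Cytoskeleton and adhesion genes had 6 among 154 (3.90%, 1.44 to 8.29%), 3 of them in Ablim1 and the others in Cdh1, Myh9 and Tiam1. Cell cycle genes had 2 among 32 (6.25%, 0.766 to 20.8%), near Myc and Plk2, and the Plk2 site (chr13:110459779-110461581) had 133 WT reads beside 65 and 57. TGF-beta and matrix genes had none among 50 (upper limit 7.11%). With the link limited to 10 kb, cell cycle genes had 0 split sites among 18 kept peaks, hair follicle and stem cell genes 0 among 46, and all lists together 30 in place of 38. The interval of every list with a split site included 2.96%, with counting error alone.

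Markers of other skin cells were counted in the same way. Fibroblast genes had 1 among 8 kept peaks, in the matrix gene Fbln1 (chr15:85281131-85282528), with 194 WT reads beside 45 and 165. Melanocyte genes had 1 among 6, in Mitf, the melanocyte master regulator (chr6:97826182-97828436), with 93 WT reads beside 48 and 57. None was found among 4 kept peaks at Langerhans and antigen-presenting cell genes or 6 at endothelial genes, and T cell genes had no kept peak. A peak near a marker gene does not show that the cell type was present, and the part of such cells in any split site was not tested.

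At the edge of the rule the overlaps were small. Just inside it, the second overlap was 6 bp near Utp25 (chr1:193140239-193142050, 196 WT reads beside 56 and 105), 16 bp at the second Atf3 site and 20 bp in Pde6a (chr18:61240949-61241564, 73 WT reads beside 38 and 43), which was also the narrowest split WT peak. Just outside it, a further KO peak lay 6 bp beyond the edge of a WT peak near Notch3 (chr17:32161752-32163121, 130 WT reads, 72 in its KO peak and 48 in the next), 12 bp beyond one near Pard3 and 14 bp beyond one near Cavin3. When KO peaks closer than 150 bp were joined before counting, 306 sites stayed split, and those at Frmd8, Smim5, Vgll3, Epgn, Perp, Krt10, Irf1, Tcim, Fhl2, Pde6a and the strongest Plec site did not. The sites at Coq10b, Wwc1, Cdh13 and Nfkbia and the last Plec site, with gaps of 146, 94, 145, 55 and 69 bp, are closed in the same way.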

How the data were processed

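The analysis used 1 deposited peak list for each YAP ChIP sample, and input files were not used here. Trimmomatic 0.36, SAMtools 1.5, MACS2 2.1.1 and the build mm10 come from the submitters' processing notes, which give no roles. The sources used here do not name the aligner, the controls or what was pooled. Per the values of the deposited files, the score is 10 times the −log10 q, and the fold is the ratio of summit signal to the caller's background. The authors' −log10 p and −log10 q are those at the summit, and none of the −log10 q is under 2.

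Whole reads at each summit were solved from the deposited fold and −log10 p under the caller's Poisson formula. Whole numbers gave the −log10 p to within 0.002 for 100% of peaks, with a scaling of 0.694 in WT and 0.842 in KO. The procedure was tested on simulated data. The even background of 9.63 reads was the same in both lists, so these reads were set side by side. Per the labels' protocols, each sample was read to a depth of 25 to 50 M reads.

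Split sites were WT peaks over 2 or more KO peaks by at least 1 bp each. The uncovered length was divided into the gaps between KO peaks and the outer flanks. Wide single sites were those of 1200 bp or more, a width chosen after the values were seen. Sites were linked to the nearest of 21631 protein-coding gene spans within 100 kb of the WT summit, from a RefSeq table of GRCm38.p6 that gives no strand, so a gene end stands for either end of a span. The design planned transcription starts and sequences around summits. Starts were taken only from the RefSeq promoter table, in which 13 split sites lie on chromosomes without a listed start, and promoter windows replaced sequences of the peaks.

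Named sites were the 8 of highest WT score, those with the most KO peaks, the 5 of widest spacing, the 5 of highest score with the WT summit in no KO peak, the 3 of highest score with KO scores in a ratio of at least 0.9, the highest in each gene list, and the 3 nearest on each side of the rule. Further sites of the lists, the second Jup site, and those of Tle3, Hes1 and the printed windows were chosen after their values were seen. The members, lists and rules were chosen with earlier results of these data known. Intervals are exact 95% Clopper-Pearson intervals for shares and order-statistic intervals for medians, cover counting error only, and no test was run because each genotype had 1 list. Alternatives were an overlap of 50 bp, KO summits inside the WT peak only, joining of KO peaks closer than 150 bp, a −log10 q of at least 4, a shortened WT list, no background subtraction and other gene windows. Python 3.11.15, pandas 2.3.3, NumPy 2.4.6, SciPy 1.17.1 and matplotlib 3.10.9 were used.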

Additional observations from a re-analysis of the deposited data

How the results depend on the processing

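No paired analysis was possible because WT and KO are 1 pooled list each. Of 70 values of 14 results under the alternatives, 55 stayed within their interval or within 1.5 times and 15 moved. Only the log2 ratio could have changed sign, and it stayed negative. The number of split sites was 421 with an overlap of at least 50 bp, 414 with KO summits inside the WT peak only, 405 at a −log10 q of at least 4, 393 with the WT list shortened to the number of KO peaks and 306 with KO peaks closer than 150 bp joined. Joining moved the share of all WT peaks to 0.837% and of kept peaks to 2.14%, the width to 1682.5 bp, the spacing to 875 bp, the gap to 311 bp, the covered share to 62.9% and the inner share of the uncovered length to 56.0% from 48.9%. Shortening the WT list moved the shares to 2.64% of all WT peaks and 3.40% of kept ones, with fewer WT peaks in the denominator, and left 10 KO peaks that spanned 2 or more WT peaks. With summits inside only, 0 such KO peaks were left, since a summit lies in at most 1 WT peak. Without background subtraction the log2 ratio was -0.83 and the ratio of the second to the strongest KO summit 0.75. The share near a gene end was 24.3% within 1 kb and 43.9% within 5 kb. The lists hold only called peaks, so KO signal in a gap that did not pass the caller's limit is not measured. That limit is on q and is not a fixed read number. The lowest called KO summit had 29 reads, while a KO summit of 52 reads near Hagh had a score of only 21. With 1 list per genotype a split cannot be separated from the spread between replicate pools.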
